A study of Mus musculus with 4 samples.

Results

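Complement genes and their regulators were followed in the epithelium of the small intestine of suckling mice. The members were 6 genes chosen by symbol, the complement proteins C3, C4b and Cfb and the regulators Cfi, Cd55 and Cd59a, out of 32227 genes in the feature lists, and all 6 were found there. They belong to a wider list of 59 complement genes written by hand. The epithelium came from 2 wild-type (WT) mice at postnatal day 6 (P6), with no treatment named. From each mouse a segment of ileum and a segment of jejunum was taken, which gave 4 single-cell libraries, 2 per region. Mouse 1 was labelled male and batch 1, and mouse 2 female and batch 2, so mouse, labelled sex and batch cannot be told apart. Epithelium was freed with EDTA and dissociated with dispase, and both regions are represented by the same 2 animals.

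Complement is a cascade of plasma and tissue proteins that marks surfaces for removal and can open pores in membranes. C3 is its central protein, C4b belongs to the classical and lectin routes, and Cfb, with C3, forms the convertase of the alternative route. Host cells are kept from attack by regulators. Cfi is a soluble protease that cuts C3b and C4b, Cd55 (decay-accelerating factor) speeds the decay of convertases at the cell surface, and Cd59a stops the assembly of the membrane pore. The liver is the main source of the plasma proteins, but epithelial cells also make several of them.

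The kept cells numbered 30522 of 36202 called. The median depth was 12048 and 10916 UMIs (distinct RNA molecules) per cell in the ileum of mouse 1 and mouse 2, and 4690 and 5884 in the jejunum, so depth went with region in both mice. The median mitochondrial share did so as well, at 3.61% and 3.74% against 6.37% and 9.94%. No cell barcode was shared between libraries. The libraries went against their sex labels. Xist, transcribed from the inactive X chromosome, was high in both libraries of mouse 1 (575 CPM for ileum, 466 CPM for jejunum) and low in both of mouse 2 (0.705 and 0.906 CPM), where CPM is a gene's share of all UMIs summed, on the usual CPM scale. Y-linked Eif2s3y was the reverse, with 0.0115 and 0.119 CPM in mouse 1 and 88.1 and 67.0 CPM in mouse 2. The comparisons rest on the labels of region, which these sex-linked genes cannot check. Cells were classed by marker genes, with the complement list removed from the genes used for clustering. Enterocyte-like cells numbered 4995 to 7900 per library and stem/progenitor-like cells 439 to 486, whereas enteroendocrine-like (46 to 74), immune-like (10 to 20) and goblet-like cells (3 to 9) were few. A further cluster of 2290 cells stayed unnamed. It met the enterocyte rule with 12 markers, but its 10 leading genes held 2 erythroid markers (Hbb-bs and Hba-a2) and no enterocyte marker. Its cells, 68.5% of them ileal, were left out of the enterocyte-like sums. Because marker genes named the classes, their shares describe the classes and do not test the names. Lgr5 was in 46.9% of stem/progenitor-like and 1.73% of other cells, and Ptprc in 90.9% of immune-like and 0.689% of other cells. Alpi was in 94.6% of enterocyte-like and 63.9% of other cells. Some markers hardly set a class apart. Pcna was in 47.7% of stem/progenitor-like and 45.2% of other cells, and Apoa1 in 99.96% of enterocyte-like and 98.6% of other cells. Lcp1, of the immune list, was in 67.3% of immune-like and 55.8% of other cells. Of the marker lists, the 12 enterocyte genes summed to 18909 to 23262 CPM in the ileum and 46939 to 47098 CPM in the jejunum, the 11 stem/progenitor genes to 306 to 365 and 520 to 639 CPM, and the 10 immune genes to 221 to 255 and 88.7 to 142 CPM, with no gene of these lists at 0 in any library. The immune sum was higher in ileal libraries, but immune-like cells were fewer there (mouse 1: 10, mouse 2: 11) than in jejunal libraries (mouse 1: 20, mouse 2: 14). How much of this sum came from Lcp1 was not tested. The part of the marker lists in the differences between regions was not tested.

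In enterocyte-like cells, Cd55 was higher and Cfi lower in the ileum than in the jejunum of both mice, while Cfb stood at nearly one level in all 4 libraries. C3 was sparse and set apart in 1 library, Cd59a was raised in 1 library, and C4b was close to absent from the counts. Counts were summed per library and compared by edgeR's quasi-likelihood test across 19606 genes, of which 1419 (7.24%) had a Benjamini-Hochberg adjusted p under 0.05 (4.17% higher in the ileum and 3.07% higher in the jejunum). Of the 6 members, 5 passed the filter on low counts (C4b did not) and 1, Cfi, was called. With the animal as a block 2 members were called, Cfi and Cd55, where 16.4% of all genes were. Non-overlapping libraries were common, at 58.6% of 23508 genes with 10 or more UMIs (34.3% higher in the ileum and 24.3% higher in the jejunum), against 3 of the 6 members, namely Cd55, Cd59a and Cfi. In summed cells, a lower level per cell and fewer expressing cells cannot be told apart.

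**Figure D1:**
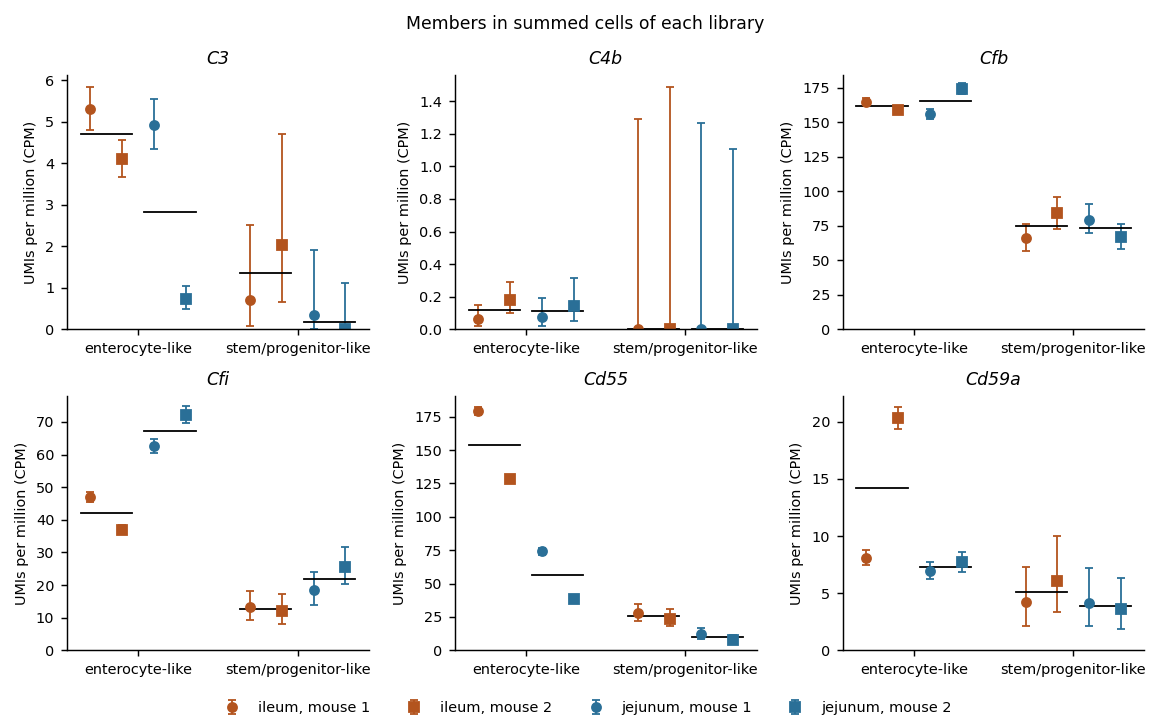
Level of each member in CPM (y axis) in the summed enterocyte-like and stem/progenitor-like cells of each library. Circles are mouse 1, squares mouse 2, bars are exact Poisson 95% intervals (counting error only) and black lines are the means of the 2 libraries of a region. Ileal Cd55 lies above jejunal Cd55 and ileal Cfi below jejunal Cfi in both classes, and C3 of jejunum mouse 2 lies apart from the other 3 libraries.

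C3, the protein at which the routes of complement meet, was found in few cells. Across all kept cells it gave 1154 UMIs in 728 cells (2.39%), and the 100 cells with most C3 held 37.3% of them. In enterocyte-like cells it stood at 5.31 and 4.10 CPM in the ileum of mouse 1 and mouse 2 and at 4.92 and 0.726 CPM in the jejunum. The low value was that of jejunum mouse 2, where 30 UMIs were counted against 259 to 417 in the other 3 libraries. The regional change was 0.63 ± 0.74 (log2, ileum over jejunum, ± SE, edgeR adjusted p = 0.607), and it went to -0.13 (edgeR adjusted p = 0.848) without jejunum replicate 2 and to 2.56 (edgeR adjusted p = 0.0140) without jejunum replicate 1. Within mouse 1 the log2 ratio was 0.11 and within mouse 2 it was 2.50. Cells with 3 or more C3 UMIs numbered 49 and 18 (ileum) against 21 and 0 (jejunum), and 44, 17 and 20 of them were enterocyte-like. Those cells were deep, with medians of 18165, 20075 and 9761 UMIs. In the unnamed cluster, which also met the enterocyte marker rule, C3 gave 52, 31, 11 and 0 UMIs (ileum mouse 1, ileum mouse 2, jejunum mouse 1, jejunum mouse 2). It gave 8 UMIs in stem/progenitor-like cells and none in enteroendocrine-like, immune-like or goblet-like cells. The limit that 0 counts allow (3 counts of the total) was 9.61 to 13.1 CPM in the enteroendocrine-like cells of single libraries. That limit was higher in the immune-like and goblet-like cells.

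RefSeq's table of upstream sequences (GRCm38.p6) held 3 of the 6 members, C3, Cd55 and Cd59a. The 250 bases before the start of C3 and of Cd55 are shown because these are the members with the sparsest and the most region-dependent signal among those found there. They are printed 5′ to 3′ on the strand of the gene, with capitals where a searched motif matched.
C3 (chr17:57228137-57228386, minus strand): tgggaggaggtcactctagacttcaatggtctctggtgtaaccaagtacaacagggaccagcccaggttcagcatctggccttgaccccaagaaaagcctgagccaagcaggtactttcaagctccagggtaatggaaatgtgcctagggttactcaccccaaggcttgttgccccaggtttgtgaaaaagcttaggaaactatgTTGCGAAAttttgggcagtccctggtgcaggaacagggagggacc
Cd55 (chr1:130462745-130462994, minus strand): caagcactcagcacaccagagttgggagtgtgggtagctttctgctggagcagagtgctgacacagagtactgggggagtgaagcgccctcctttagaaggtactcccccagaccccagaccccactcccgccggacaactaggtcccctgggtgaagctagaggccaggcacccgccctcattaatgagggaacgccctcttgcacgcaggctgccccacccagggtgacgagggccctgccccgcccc
Searched on both strands were TATAAA (held by 12.4% of 32851 promoters of this length), GGGA, any 2 bases and TTCC for NF-kB (1.21%), GAAA, any 2 bases and GAAA for interferon response elements (2.98%), TTGCNNAA for C/EBP (9.56%) and CAAAGTCCA for HNF4 (0.384%). C3 held 1 match to the C/EBP letters, beginning 45 bases before the start, and Cd59a 1 match to the interferon response letters, beginning 187 bases before it. The Cd55 window held none of these letters, and had a GC content of 64% and 8 CpG pairs, against medians of 52.4% and 6 over all promoters. C3 had 52% and 1, and Cd59a 44.8% and 0.

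C4b, a C4 gene of the classical and lectin routes, gave 30 UMIs in 30 cells of all kept cells, never more than 1 per cell. All 30 lay in enterocyte-like cells, at 0.0637 and 0.178 CPM in the ileum and 0.0760 and 0.145 CPM in the jejunum. Against the limit that 0 counts allow, 0.0355 to 0.0726 CPM, these levels are at the edge of what the depth can show, and C4b did not pass the filter for testing. Its near copy C4a gave 48 and 42 ileal and 35 and 10 jejunal UMIs over all kept cells. Of 411 stretches of 90 bases in the last 500 bases of C4b, 83 also occur in C4a transcripts (GENCODE vM21), so the split of reads between the copies is uncertain.

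Cfb, the protease of the alternative convertase, was the member found in most cells, with 45491 UMIs in 60.1% of kept cells. In enterocyte-like cells it stood at 165 and 159 CPM in the ileum and 156 and 174 CPM in the jejunum, and the regions overlapped. Their means were 162 ± 4.02 and 165 ± 13.0 CPM (SD, n = 2 each). The change was -0.14 ± 0.14 on the log2 scale (edgeR adjusted p = 0.533). The direction differed between the mice, with log2 ratios of 0.08 and -0.13. Of its transcripts, 411 of 782 stretches of 90 bases in the last 500 bases also occur in the readthrough gene Gm20547, so a part of its reads may have been assigned elsewhere. C2, the protease of the classical and lectin convertase, stood at 172 and 140 CPM in the ileum against 77.9 and 61.4 CPM in the jejunum, with no overlap. It was called, at 1.05 ± 0.16 (log2, edgeR adjusted p = 0.0265). The difference between the regional changes of Cfb and C2 was not tested.

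Cfi, the protease that inactivates C3b and C4b, was lower in the ileum. It stood at 46.9 and 37.0 CPM in ileal enterocyte-like cells and at 62.6 and 72.1 CPM in jejunal ones, and the regions did not overlap. The log2 change was -0.80 ± 0.17 (edgeR adjusted p = 0.0494), with within-mouse ratios of -0.42 and -0.96. With the animal as a block the adjusted p of edgeR was 0.0263. The call sits at the threshold. Without any single library it was lost, at edgeR adjusted p = 0.165 without ileum replicate 1, 0.187 without ileum replicate 2, 0.0656 without jejunum replicate 1 and 0.214 without jejunum replicate 2, while the change kept its sign (-0.92 to -0.64).

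Cd55, which destabilises convertases on the cell's own surface, stood at 179 and 129 CPM in ileal enterocyte-like cells and at 74.1 and 38.5 CPM in jejunal ones. The ileal libraries were both above the jejunal ones, and in each region mouse 1 was above mouse 2. Means were 154 ± 35.6 and 56.3 ± 25.1 CPM (SD, n = 2 each). The log2 change was 1.34 ± 0.31 and missed the threshold with region as the only term (edgeR adjusted p = 0.0612). With the animal as a block, which takes up the difference between mice, it was 1.39 ± 0.16 and was called (edgeR adjusted p = 0.00536). Within-mouse log2 ratios were 1.27 and 1.74. Sums over cells thinned to 2000 UMIs each gave 1.29 ± 0.30, also called (edgeR adjusted p = 0.0396, where 9.87% of all genes were), and DESeq2 called it as well (adjusted p = 0.000153, where 18.4% were). Without jejunum replicate 1 the change was 1.86 and was called (edgeR adjusted p = 0.0167), and without ileum replicate 1, ileum replicate 2 or jejunum replicate 2 it was 1.14, 1.52 and 0.99, none called (edgeR adjusted p = 0.239, 0.164 and 0.119). Its relative Cd55b stood at 12.7 and 6.42 CPM against 4.73 and 2.13 CPM, at 1.35 ± 0.45 (log2, edgeR adjusted p = 0.121), and 143 of 1233 stretches of 90 bases in the last 500 bases of Cd55 transcripts occur in Cd55b, so the copies may share reads. Gm16083, an antisense gene overlapping Cd55 in GENCODE vM21, stood at 19.1 and 11.5 CPM in the ileum and 7.92 and 5.65 CPM in the jejunum over all kept cells. Whether strand was used in counting is not given in the sources used here, so reads of the overlap cannot be told apart.

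Cd59a, the inhibitor of pore assembly, stood at 8.12 and 20.3 CPM in ileal enterocyte-like cells and at 6.95 and 7.69 CPM in jejunal ones. Ileum mouse 2 was high and the other 3 libraries lay close together. The log2 change was 0.86 ± 0.45 (edgeR adjusted p = 0.260). Without ileum replicate 2 it was -0.01 (edgeR adjusted p = 0.983), so the difference between regions rests on that library. None of the 827 stretches of 90 bases at the end of Cd59a transcripts occurs in its copy Cd59b.

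Shares of cells with a UMI depend on depth, so cells were thinned to 2000 UMIs. At this depth Cd55 was seen in 25.5% and 20.6% of ileal enterocyte-like cells and in 12.0% and 5.99% of jejunal ones, with exact (Clopper-Pearson) 95% intervals of 24.5 to 26.7%, 19.6 to 21.6%, 11.3 to 12.8% and 5.33 to 6.69%. None of these intervals touched another. Cfi was seen in 8.20% (7.53 to 8.91%) and 6.53% (5.95 to 7.15%) of ileal and in 10.8% (10.1 to 11.6%) and 11.9% (11.0 to 12.9%) of jejunal enterocyte-like cells. The order of Cfi turned without thinning, where means of 34.0% in the ileum and 31.9% in the jejunum were found and ileal cells were deeper. Cfb was seen in 26.3%, 25.2%, 23.6% and 27.7% of cells in ileum mouse 1, ileum mouse 2, jejunum mouse 1 and jejunum mouse 2. Cd59a shares in the same order were 1.19%, 3.65%, 1.42% and 1.44%, C3 shares 0.888%, 0.751%, 0.722% and 0.167%, and C4b shares were at most 0.0417%. The C3 shares rest on 55, 50, 52 and 8 cells and the C4b shares on 1 or 2 cells per library. The intervals and limits cover counting error only. With 2 libraries per region no exact permutation test can reach p of 0.05, and none was run on shares.

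Within the enterocyte-like class the members varied by cluster. There were 17 such clusters with at least 50 ileal cells and 15 with at least 50 jejunal cells, and their cells come from the same 4 libraries. Cd55 ran from 48.9 CPM (cluster 16, led by Celf2 and Rmrp) to 340 CPM (cluster 17, led by Lars2) in the ileum and from 16.2 to 152 CPM in the jejunum, and was higher in the ileum in 15 of 15 clusters found in both. Ileal Cd55 in cluster 17 was 347 CPM in mouse 1 and 258 CPM in mouse 2, from 149 and 20 cells, and the ileal value of cluster 16 rests on 33 UMIs. Jejunal Cd55 in cluster 17 was 170 CPM in mouse 1 and 36.3 CPM in mouse 2, from 349 and 39 cells. Cfi was higher in the ileum in 0 of 15 clusters, with medians of 39.4 and 66.4 CPM. Cfb was higher in the ileum in 5 of 15. Clusters 7 and 11, among whose leading genes are Aldh1a1 and Cldn15, held 196 and 211 CPM of Cfb but 53.8 and 70.3 CPM of Cd55 in the ileum, while cluster 13, led by Sprr2a2 with the villus tip gene Enpp3, held 114 CPM of Cfb and 249 CPM of Cd55. Cluster 15, led by Reg3g, was almost wholly ileal and stood at 215 CPM of Cd55 and 157 CPM of Cfb. Cluster 20, led by interferon-induced genes such as Ifit3, had at least 50 cells in the ileum alone (117 cells). It stood there at 176 CPM of Cfb and 2.02 CPM of C3, inside the ranges of the other enterocyte-like clusters. The C3 value rests on 4 UMIs. These are descriptions with no test.

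**Figure D2:**
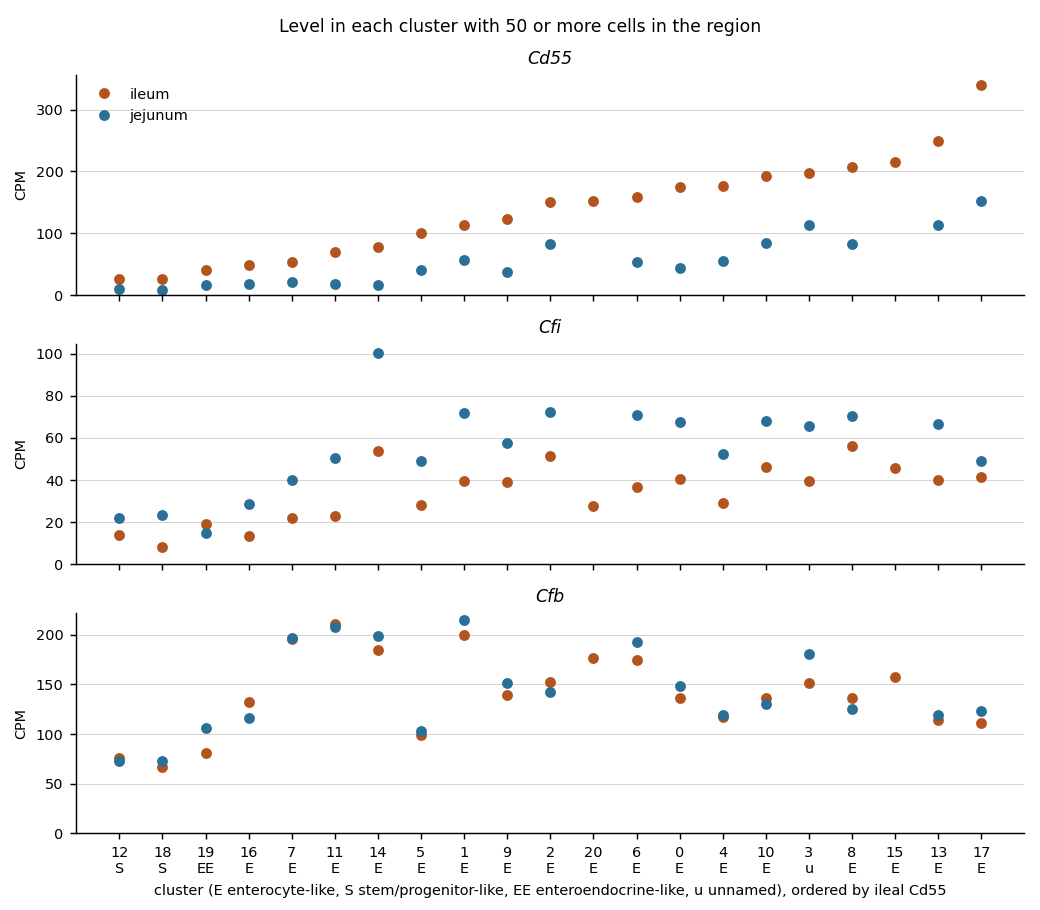
Level of Cd55, Cfi and Cfb in CPM (y axis) in each cluster with 50 or more cells of a region (x axis, ordered by ileal Cd55), summed over the 2 mice. Ileal points lie above jejunal points for Cd55 and below them for Cfi in all 15 enterocyte-like clusters found in both regions, and clusters 7 and 11 have more Cfb and less Cd55 than cluster 13.

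Villi mature from base to tip, and 6 genes of the villus tip (Ada, Nt5e, Slc28a2, Enpp3, Egfr and Klf4) were summed in each enterocyte-like cell at 2000 UMIs to follow the members along this axis. The ranges of the sum (0, 1 to 2, 3 or more) were set after its distribution was seen, and the highest held 498 to 1378 cells per library. From the lowest to the highest range, Cd55 went from 284 to 406 UMIs per 1000 cells in ileum mouse 1, from 206 to 339 in ileum mouse 2, from 107 to 194 in jejunum mouse 1 and from 52.6 to 143 in jejunum mouse 2. In each library the exact Poisson 95% intervals of these 2 ranges did not meet. C2 moved the same way in every library, from 263 to 427, 228 to 381, 148 to 196 and 98.7 to 197. Cfb went the other way, from 315 to 298, 326 to 225, 304 to 234 and 345 to 245, and in ileum mouse 1 the intervals overlapped. Cfi had no common direction, at 87.6 and 86.4, 58.1 and 67.4, 117 and 109, and 139 and 88.4 UMIs per 1000 cells. C3 went from 5.79 to 21.4 UMIs per 1000 cells in jejunum mouse 1, where the intervals did not meet, while in the other 3 libraries they overlapped, with 0 to 19 C3 UMIs in the highest range. Cd59a gave 9 to 29 UMIs there, and its direction differed between libraries. At every range, ileal Cd55 stood above jejunal Cd55 of the same mouse. Depth was equal by construction here.

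**Figure D3:**
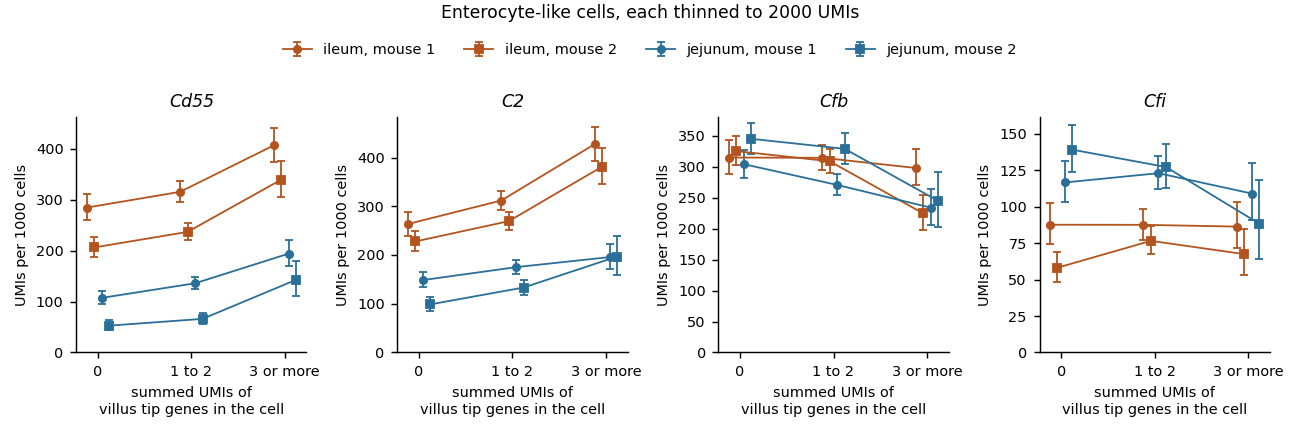
UMIs per 1000 enterocyte-like cells (y axis) of Cd55, C2, Cfb and Cfi by the summed count of 6 villus tip genes in the cell (x axis), with every cell thinned to 2000 UMIs. Lines are libraries and bars are exact Poisson 95% intervals. Cd55 and C2 are higher in the range of 3 or more than at 0 in all 4 libraries. Cfb is lower, with overlapping intervals in ileum mouse 1.

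Between classes, the members were set beside 6 absorptive genes (Apoa1, Apoa4, Apob, Fabp2, Lct and Mttp), used as a gauge of enterocyte RNA in other cells. All 6 are also among the 12 enterocyte markers used to name the classes. Whether other classes transcribe them was not tested, so their range cannot tell own from carried-over RNA. Over all libraries summed, the absorptive genes stood in stem/progenitor-like cells at 11.0% to 27.0% of their enterocyte-like level. Cfb stood at 45.2%, Cd59a at 37.2% and Cfi at 35.1%, all above that range, and Cd55 at 14.6%, inside it. By library, Cfb was above the range in 4 of 4. Cfi was inside it in ileum mouse 1 (28.3%), barely above it in ileum mouse 2 (32.7% against a top of 32.5%) and above it in the jejunum (29.6% and 35.4%), and Cd59a was inside it in ileum mouse 2 (29.8%). Per library, Cd55 in stem/progenitor-like cells was at 15.6%, 18.5%, 16.2% and 20.3% of its enterocyte-like level, and the absorptive genes reached 34.6%, 32.5%, 18.2% and 19.6% (ileum mouse 1, ileum mouse 2, jejunum mouse 1, jejunum mouse 2). It was inside the range in 3 libraries and just above it in jejunum mouse 2. The part of carried-over RNA in the Cd55 level was not tested. In enteroendocrine-like cells Cd59a was at 482% of its enterocyte-like level over all libraries (60 UMIs in 258 cells), where the absorptive genes were at 17.0% to 34.7%. By library it stood there at 12.8, 119, 35.0 and 65.9 CPM, in the same order, against 8.12, 20.3, 6.95 and 7.69 CPM in enterocyte-like cells. The value was higher in 4 of 4 libraries, but in ileum mouse 1 it rests on 4 UMIs. At 2000 UMIs, 4.11%, 16.4%, 6.78% and 11.1% of enteroendocrine-like cells held a Cd59a UMI. Cfb in these cells was at 56.7%, but inside the range in ileum mouse 1 (38.9%). Cfi and Cd55, at 33.6% and 25.7%, were inside the range of the absorptive genes only with all libraries summed. By library, Cd55 was at 19.7%, 37.6%, 11.8% and 64.2%. The absorptive genes there spanned 29.6% to 57.0%, 14.7% to 33.0%, 12.1% to 24.7% and 13.1% to 26.5%, so Cd55 lay below, above, below and above them. Cfi was inside the range in ileum mouse 1 alone (34.2%). These values rest on 2 to 13 Cd55 and 0 to 7 Cfi UMIs per library. Immune-like cells held 8 Cfb, 2 Cfi, 9 Cd55 and 2 Cd59a UMIs in 55 cells, and the 21 goblet-like cells held 18, 2, 13 and 9. In goblet-like cells this put Cd59a at 1108%, Cfb at 161% and Cd55 at 160% of the enterocyte-like level, above the absorptive genes (14.3% to 58.3%), and Cfi at 57.2%, inside their range, so a high Cd59a level was not seen in enteroendocrine-like cells alone.

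**Figure D4:**
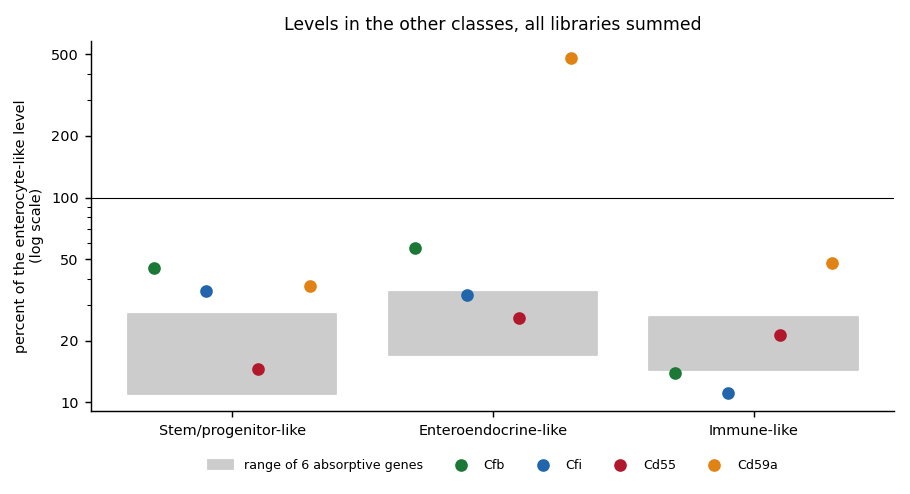
Level of 4 members in 3 classes as a percent of their own enterocyte-like level (y axis, log scale), with all libraries summed. Grey bands give the range of 6 absorptive genes and the line marks 100%. Cd59a reaches 482% in enteroendocrine-like cells, Cd55 lies within the bands, and the Cd59a point in immune-like cells rests on 2 UMIs. The 21 goblet-like cells are not drawn.

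In stem/progenitor-like cells, 326 of 12566 genes (2.59%) were called between regions (1.58% higher in the ileum and 1.02% higher in the jejunum), and 1 of the 4 members tested was, Cd55. It stood at 27.9 and 23.8 CPM in the ileum and 12.0 and 7.80 CPM in the jejunum, from 26 to 80 UMIs per library, at 1.35 ± 0.27 (log2, edgeR adjusted p = 0.0308). Its level in these cells was within the range of the absorptive genes over all libraries, and the part of carried-over RNA in this change was not tested. The call was lost without ileum replicate 1 (edgeR adjusted p = 0.0539), without the highest Scrublet scores (0.151), on thinned cells (0.0879, where 1.6% of all genes were called), with the complement genes kept in clustering (0.155) and by DESeq2 (0.121, where 2.21% were). Over all alternatives the change itself stayed between 1.02 and 1.75. Cfi stood at 13.3 and 12.1 CPM against 18.5 and 25.5 CPM, at -0.85 ± 0.26 (log2, edgeR adjusted p = 0.143), and at 0.0493 with the animal as a block, where 8.24% of all genes were called. Cfb stood at 66.0 and 84.0 CPM against 79.5 and 66.9 CPM (log2 change -0.02 ± 0.18, edgeR adjusted p = 0.981).

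Over all kept cells 1526 of 20368 genes (7.49%) were called (4.35% higher in the ileum and 3.14% higher in the jejunum), and none of the 5 members tested. Cd55 was at 1.42 ± 0.33 and Cfi at -0.71 ± 0.16 (edgeR adjusted p = 0.0590 and 0.0586, unadjusted 0.00552 and 0.00541). Both were called with the animal as a block (edgeR adjusted p = 0.0136 and 0.0492, where 13.3% of all genes were called), by DESeq2 (adjusted p = 9.5e-05 and 0.00472, where 18.0% were) and on thinned cells (edgeR adjusted p = 0.0467 and 0.0318, where 7.23% were). The difference of the regional change between enterocyte-like and stem/progenitor-like cells was tested directly across 18906 genes, of which 9.42% were called (4.93% with the larger ileal excess in enterocyte-like cells and 4.48% with the smaller). None of the 5 members tested was called by edgeR, also not on thinned cells (where 5.72% of genes were), or by DESeq2 (where 9.6% were), and with all 4 libraries none had an unadjusted p under 0.05. It was 0.03 ± 0.25 for Cd55, 0.05 ± 0.24 for Cfi, -0.12 ± 0.19 for Cfb and 0.42 ± 0.45 for Cd59a (log2, enterocyte-like minus stem/progenitor-like, ± SE, edgeR adjusted p = 0.959, 0.931, 0.778 and 0.636). The C3 value of -2.22 ± 1.31 rests on 8 stem/progenitor-like UMIs. These p-values do not show that the changes were equal.

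The other genes of the complement list were described by their roles. In enterocyte-like cells 40 of the 59 genes passed the filter, and 5 were called, 3 higher and 2 lower in the ileum. Of all genes tested there, 7.24% were called (4.17% higher and 3.07% lower in the ileum). The median log2 change of the 40 list genes was -0.03, beside -0.01 over all genes tested. Of the 16 recognition proteins and initiating proteases, 6 were tested and none called. Of 7 central and convertase proteins, 5 were tested and C2 alone was called. All 7 terminal pathway genes were tested and none called, with changes of 1 above 0 and of 6 below 0. C8g, a subunit of the membrane pore, stood at 6.19 and 4.26 CPM against 8.99 and 7.98 CPM, at -0.82 ± 0.21 (edgeR adjusted p = 0.0774). Among soluble regulators 10 of 12 were tested and 4 called. Cpn1, a subunit of the carboxypeptidase that inactivates complement peptides, stood at 41.2 and 43.2 CPM in the ileum and 15.5 and 15.6 CPM in the jejunum, at 1.33 ± 0.14 (edgeR adjusted p = 0.0173). Clu, a binder of pore complexes, was lower, from 18 and 18 ileal against 32 and 27 jejunal UMIs, at -1.61 ± 0.31 (edgeR adjusted p = 0.0429, and 0.0848 by DESeq2). Cfi, of the same role, was called as given above. All 8 membrane regulators were tested and none called. Of these, Cr1l, a cofactor and decay accelerator of the cell surface, stood at 89.6 and 88.5 CPM against 62.0 and 58.8 CPM, at 0.45 ± 0.13 (edgeR adjusted p = 0.0917), Cd46 at 0.17 ± 0.22 (adjusted p = 0.650) and Csmd1 at 0.04 ± 0.29 (adjusted p = 0.942). Of 9 receptors 4 were tested and none called. Without ileum replicate 1 or ileum replicate 2 no gene of the list was called, and without jejunum replicate 2 only 1 was.

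Genes with a pattern most like that of a member were ranked over 76 sums of a library and a cluster, among 7066 genes with a mean of at least 20 CPM, by Pearson's r of log2(CPM + 5). The sums share 4 libraries and their depth. For Cd55 they were Wwc2 (r = 0.93), Bend4 (0.93) and Gulp1 (0.90). For Cfi they were Acsl5 (0.88), which activates fatty acids, Polg (0.86) and Tdrp (0.86). Cfb was most like Tubal3 (0.83), Gmppb (0.83) and Mov10 (0.82), and Cd59a, with the lowest values, most like Prkar1a (0.69), Arl2 (0.66) and Trim43c (0.65). C3 and C4b, with means of 3.03 and 0.0638 CPM over these sums, were too low to rank.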

How the data were processed

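Ileal and jejunal epithelium of 2 mice was profiled with PIPseq 3′ single-cell libraries. Values are UMI counts for each gene in each called cell, deposited as the authors made them with PIPseeker at its sensitivity level of 3, and the submitters' processing notes name GRCm39. The stranded setting and annotation are not given in the sources used here. Following the limits in the study's methods, cells with over 1000 and under 6000 genes and under 20% mitochondrial counts were kept. The limit of at least 3 cells per gene was applied in counting genes per cell and in clustering. It removed no gene from the summed counts. Scrublet in scanpy 1.11.5 marked at most 3 cells per library, under the share at which such calls work, so doublets were not removed. Seurat 5.3.0 in R 4.3.3 integrated the libraries (2000 variable genes less 8 complement genes, CCA, 30 dimensions) and clustered at resolution 1. Classes came from marker lists, with thresholds set after the data were seen.

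Counts were summed per library and class, filtered by filterByExpr (minimum count 10), TMM-normalized and tested with edgeR 4.0.16 (quasi-likelihood, region the only term). SE was taken as the fold change over the root of F. Benjamini-Hochberg adjustment ran over all genes tested. The unit is the library, and p-values measure the spread between 2 animals. Same-numbered libraries come from the same mouse by their titles and the series design, and their deviations from the region means correlated at 0.27 in enterocyte-like cells, so a fit with the animal as block is given. Alternatives were DESeq2 1.42.0, the block, no filter, DESeq2 size factors, cells thinned to 2000 UMIs, under 10% mitochondrial counts, leaving out each library, complement genes kept in clustering, and leaving out the highest 6% of Scrublet scores. Scripts were tested on simulated data.

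Named were the 6 members, complement list genes called or averaging 5 CPM or more in a region, and the 3 genes most like each member. A called gene of the list is counted but not reported here. C4a, Cd59b, Gm16083 and the class and cluster genes were named after their values were seen. The members and lists were chosen with earlier results of these data known.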

Additional observations from a re-analysis of the deposited data

How the results depend on the processing

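The direction of Cd55 and Cfi was kept in every alternative that gave a value in enterocyte-like, stem/progenitor-like and all kept cells. Cfi had none in thinned stem/progenitor-like cells, where it did not pass the filter. Members called in enterocyte-like cells (1) were 2 with the animal as replicate block, by DESeq2 and on cells thinned to 2000 UMIs, 0 with no filter on low counts, and 0 to 2 when 1 library was left out. In stem/progenitor-like cells (1) they were 2 with the block, and 0 by DESeq2, on thinned cells, without the highest Scrublet scores and with complement genes kept in clustering. When 1 library was left out, the log2 change there ran from 1.05 to 1.67 for Cd55 and from -1.06 to -0.60 for Cfi. In all kept cells (0) they were 2 with the block, by DESeq2 and on thinned cells. The log2 change there was 2.79 for C3 and 1.99 for Cd55 without jejunum replicate 1, and 1.45 for Cd59a without ileum replicate 1. Called genes of the complement list in enterocyte-like cells (5) were 10 with the block, 10 by DESeq2, 0 with no filter and 0 to 4 when 1 library was left out. All genes called there (1419) were 3222 with the block, 3128 by DESeq2, 1 with no filter and 3 to 1387 when 1 library was left out, with 3 without ileum replicate 1, 27 without ileum replicate 2 and 482 without jejunum replicate 2.

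Among the log2 changes of members, sign changed only where neither value was called. Cfb in stem/progenitor-like cells was at 0.020 without the highest Scrublet scores, 0.036 with complement genes kept in clustering, and -0.22 to 0.17 when 1 library was left out (0.10 without jejunum replicate 1), and in all kept cells -0.14 to 0.034 (0.034 without jejunum replicate 2). In enterocyte-like cells C3 ran from -0.13 (without jejunum replicate 2) to 2.56 and Cd59a from -0.0096 (without ileum replicate 2) to 1.41. The difference of the regional change between the classes was -0.46 for Cd55 and 0.024 for Cfb on thinned cells, and -0.16 for Cd55 under 10% mitochondrial counts. When 1 library was left out it ran from -0.11 to 0.16 for Cd55 (-0.045 without jejunum replicate 2), -0.068 to 0.16 for Cfi (-0.017 without jejunum replicate 2), -0.37 to 0.16 for Cfb (0.10 without ileum replicate 2) and -0.020 to 0.75 for Cd59a. The cause of these changes was not tested.

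Ileum minus jejunum in the share of enterocyte-like cells with a UMI moved with depth. At 2000 UMIs it was 14.1 points for Cd55, -4.00 for Cfi, 0.148 for Cfb, 0.994 for Cd59a, 0.375 for C3 and -0.0122 for C4b. In unthinned cells it was 40.1, 2.10, 16.3, 7.85, 2.49 and 0.0628 points, and at 4000 UMIs 22.3 for Cd55 and -8.03 for Cfi. C4b, with 30 UMIs in all unthinned kept cells, did not pass the filter on low counts in fits with all 4 libraries.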
